A study of Mus musculus with 6 samples.

Results

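The genes described here encode the chaperones of the cytosol and of mitochondria. They were taken from the deposited gene list by symbol, as every gene named Hspa followed by a digit, Hsp90a, Hspb followed by a digit, Dnaja, Dnajb or Dnajc followed by a digit, or Cct followed by a digit from 2 to 8, together with Hspd1, Hspe1, Hsph1, Tcp1, Hsf1, Bag1 and Stip1, and without Hspa5. The rule found 84 of the 21878 listed genes. It used no measured value. It also catches genes whose products work elsewhere, namely the endoplasmic reticulum (ER) members Hspa13, Dnajb9, Dnajb11, Dnajc1, Dnajc3 and Dnajc10, the processed pseudogene Dnajc19-ps, and Hspb11, which is better known as an intraflagellar transport protein.

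HSCs were sorted from the BM of WT C57BL/6 mice as Lin-Sca-1+c-Kit+Flt3-CD34- cells, and their mRNA was sequenced in 6 libraries. The 3 IGF1 libraries came from mice that had been given recombinant mouse IGF1 as 1 subcutaneous dose (200 µg/kg) and were studied at day 1, and the 3 control libraries from vehicle-treated mice. The age and sex of the mice are not given in the sources used here, and the labels do not say how many mice stand behind a library, so the p-values measure the spread between these libraries. The labels also conflict, because the treatment label reads IGF1 or control while the description of the extraction speaks of irradiated mice; the treatment label was followed.

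Chaperones bind proteins that are not yet folded or have lost their fold. HSP70 proteins work in an ATP-driven cycle in which J-domain proteins (the DNAJ families) deliver the client and exchange factors such as the HSP110 proteins and Bag1 release it, and HSP90 then matures a narrower set of clients handed over by Stip1. The chaperonins are closed chambers, the CCT ring in the cytosol, which folds actin and tubulin, and the Hspd1 ring with its Hspe1 lid in mitochondria. Hsf1 is the transcription factor that raises many of these genes under protein stress, by binding repeated GAA and TTC units known as heat shock elements.

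The promoters are shown for the genes on which the results turn. Hspd1 and Hspe1 stand head to head on chromosome 1 and share a start region, but their log2 fold changes had opposite signs. Hspa1a and Hspa1b are near-identical stress-inducible genes, Hsph1 is an HSP110 gene with elements at more than 1 place, and Cct8 had the lowest log2 fold change of all tested members. Each window runs from 250 bases before to 50 bases after a RefSeq start on GRCm38.p6, 5′ to 3′ on the strand of the gene, and capitals mark the letters GAANNTTC or TTCNNGAA, which are a heat shock element of 2 units.
Hspd1, chr1:55087883-55088182, minus strand: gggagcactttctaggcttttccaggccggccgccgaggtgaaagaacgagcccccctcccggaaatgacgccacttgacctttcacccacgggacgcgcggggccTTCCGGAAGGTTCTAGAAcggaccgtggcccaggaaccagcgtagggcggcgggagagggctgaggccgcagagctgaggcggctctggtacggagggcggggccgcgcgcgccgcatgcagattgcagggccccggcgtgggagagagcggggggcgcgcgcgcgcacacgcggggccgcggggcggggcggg
Hspe1, chr1:55087898-55088197, plus strand: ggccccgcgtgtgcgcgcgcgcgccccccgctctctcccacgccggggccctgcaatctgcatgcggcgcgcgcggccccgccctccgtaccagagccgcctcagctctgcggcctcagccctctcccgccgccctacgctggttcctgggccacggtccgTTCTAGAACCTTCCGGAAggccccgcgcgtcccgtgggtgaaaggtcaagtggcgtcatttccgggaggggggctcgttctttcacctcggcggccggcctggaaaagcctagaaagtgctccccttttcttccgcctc
Hspa1a, chr17:34972107-34972406, minus strand: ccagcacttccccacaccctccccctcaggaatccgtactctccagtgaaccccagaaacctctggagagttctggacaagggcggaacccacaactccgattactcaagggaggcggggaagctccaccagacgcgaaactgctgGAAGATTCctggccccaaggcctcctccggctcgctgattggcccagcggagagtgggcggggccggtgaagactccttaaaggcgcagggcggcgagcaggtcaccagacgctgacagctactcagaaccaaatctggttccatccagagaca
Hspa1b, chr17:34959189-34959488, minus strand: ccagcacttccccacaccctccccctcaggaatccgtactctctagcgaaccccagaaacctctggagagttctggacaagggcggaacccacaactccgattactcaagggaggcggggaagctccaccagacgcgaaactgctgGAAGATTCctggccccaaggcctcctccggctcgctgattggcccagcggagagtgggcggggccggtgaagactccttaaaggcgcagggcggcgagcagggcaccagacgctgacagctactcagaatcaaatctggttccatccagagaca
Hsph1, chr5:149636266-149636565, minus strand: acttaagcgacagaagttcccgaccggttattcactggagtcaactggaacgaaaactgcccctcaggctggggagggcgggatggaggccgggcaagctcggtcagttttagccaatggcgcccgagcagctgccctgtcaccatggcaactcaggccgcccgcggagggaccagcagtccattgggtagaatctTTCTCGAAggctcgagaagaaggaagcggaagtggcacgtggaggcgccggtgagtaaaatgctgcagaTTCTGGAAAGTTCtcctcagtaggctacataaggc
Cct8, chr16:87495820-87496119, minus strand: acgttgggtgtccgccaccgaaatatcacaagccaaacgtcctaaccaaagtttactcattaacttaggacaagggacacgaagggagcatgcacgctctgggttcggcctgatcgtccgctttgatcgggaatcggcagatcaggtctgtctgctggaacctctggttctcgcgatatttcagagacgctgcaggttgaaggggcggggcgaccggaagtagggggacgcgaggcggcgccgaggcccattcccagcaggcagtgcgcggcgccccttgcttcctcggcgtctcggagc

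The Hspd1 and Hspe1 windows shown share 285 of their 300 bases, so the capitals in both are the same element read from either strand. Hspd1 has another RefSeq start, whose window (chr1:55088194-55088493) is not shown and holds 0 elements. The Hspa1a and Hspa1b windows are identical at 296 of 300 positions. Promoters were found for 67 members, in 86 windows since a gene can have several starts. The element of 2 units was present in 22 of these windows (25.6%), against 4946 of 32851 windows of all genes (15.1%). An element of 3 units, GAANNTTCNNGAA or TTCNNGAANNTTC, which contains the shorter one, was present in 6 of the 86 windows (6.98%), those of Hspd1, Hspe1, Hsph1 and Dnajb6, against 198 of all windows (0.603%). These are matches of letters on both strands, not measured binding, and the Cct8 window holds none.

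Levels are given as FPKM, which is the number of fragments on a gene scaled to the length of its transcript and to the depth of the library, a unit inferred from the values because no source used here names it. Genes that reached 1 FPKM in 3 or more of the 6 libraries were tested, 10449 in all. The test was limma's, on log2(FPKM + 1), where changes of low genes come out too small. A gene was called when its fold change was over 2 and its Benjamini-Hochberg adjusted p over all tested genes was under 0.05, and log2 fold changes are IGF1 minus control on that scale. Of the 84 members, 66 were tested and 18 were not, 6 of them at 0 in every library (Cct8l1, Dnajb8, Dnajc22, Dnajc5g, Hspb2 and Hspb3) and none above 1.30 FPKM. The tested members held between 8 and 39751 reads in a library, and 14 members exceeded 100 FPKM in every library. Values in the sentences below are in the order of control replicates 1, 2 and 3 and then IGF1 replicates 1, 2 and 3, and 3 libraries stand behind each mean ± SD.

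The libraries themselves bear on every comparison. Reads on listed genes came to 11206746 to 15973581 per library. Over 2-fold differences were found in 1 gene between control replicates 1 and 3 and in 4 or 5 genes between pairs of IGF1 libraries. For control replicate 2 they were found in 2573 and 2587 genes against the other controls, but in 105 to 125 genes against IGF1 libraries. Counts of calls are therefore given with and without control replicate 2. The mean chi-squared per gene between the reads of a pair of libraries was 1.52 for control replicates 1 and 3 and 1.69 to 1.89 among IGF1 libraries. It was 229 and 231 for control replicate 2 against the other controls. Without control replicate 2 the libraries of a group are nearly alike, and p-values measure little more than the sampling of reads. Markers were checked as summed FPKM. The 10 neutrophil genes, all above 0 in at least 1 library, summed to 3199 to 5429 in the controls and 5483 to 5527 in the IGF1 libraries, with 4 of 9 tested called lower (Ngp, Camp, S100a8 and S100a9) and 0 higher. The 10 B cell genes summed to 121 to 499 and 474 to 494 (0 of 7 tested called), the 10 megakaryocyte and platelet genes to 61.2 to 82.7 and 107 to 117 (2 of 7 called higher, Gp6 at 0), and the 12 genes of HSCs and of the sort gate to 1259 to 1493 and 953 to 979 (0 of 11 called). Erythroid genes summed to 42.1 to 114 and 57.3 to 63.3, T and NK cell genes to 389 to 811 and 804 to 821, stromal and endothelial genes to 32.9 to 61.9 and 36.8 to 38.3, and immediate early genes to 2650 to 4515 and 3423 to 3507, with Fosb called higher as the only call in these 4 lists. Without control replicate 2, the calls were 5 lower and 3 higher among neutrophil genes, 0 and 5 among B cell genes, 0 and 4 among megakaryocyte and platelet genes, 5 and 0 among genes of HSCs and the gate, and 0 and 1 among both T and NK cell genes and immediate early genes. Of the HSC genes, Slamf1 stood at 0.736 to 2.41 FPKM and Hoxb5 under 1 FPKM. Cd34 and Flt3, which the gate excludes as surface proteins, were listed at 230.2 to 640.0 and 117 to 188 FPKM. The part of these markers in the chaperone results was not tested, and in such bulk libraries fewer cells of a type and less RNA per cell cannot be told apart.

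In HSCs of IGF1-treated mice, 10 of the 66 tested chaperone genes were called, 9 lower and 1 higher. The 9 that fell are the chaperonin subunits Cct8, Cct6a and Tcp1, the mitochondrial chaperones Hspa9 and Hspd1, and the J-domain genes Dnaja2, Dnaja3, Dnaja4 and Dnajc14, and the one that rose is Dnajc4. The called share was 15.2%, against 6.61% of all 10449 genes, made up of 13.6% lower and 1.52% higher against 4.63% and 1.98%. The most abundant members, Hsp90ab1, Hspa8 and Hsp90aa1 by the mean of all 6 libraries, were not called. With limma voom on reads recovered from the FPKM the calls were 9 lower and 3 higher. Under other scalings of the libraries the calls split differently, with 3 higher and 3 lower by quantile normalization, 3 and 3 by the 75th percentile, and 3 and 5 by median-of-ratios size factors.

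By adjusted p alone, at any fold, 18 members (27.3%) passed against 20.4% of all genes, 15 of them lower (against 14.1% of all genes) and 3 higher (against 6.26%). Unadjusted, 40 members had a p under 0.05, where 53.4% of all genes did. The groups did not overlap in 46 members (69.7%) against 59.4% of all genes, with 35 lower (53.0% against 37.4%) and 11 higher (16.7% against 21.9%). Log2 fold changes were below 0 in 45 members, 68.2% against 59.6% of all genes. The median log2 fold change of the tested members was -0.27, where that of all tested genes was -0.18. Scaling moved the latter to 0.13 (75th percentile), 0.03 (median of ratios) and -0.01 (quantile), and fold changes are best read relative to it. The counts depended on each library. Without control replicate 2, 25 members were called (37.9%, against 32.9% of all genes), 19 lower (28.8% against 20.6%) and 6 higher (9.09% against 12.3%), the 10 members named above were among them, and the medians were -0.41 and -0.24. In that fit 61 members and 9293 of the 10449 genes had an unadjusted p under 0.05. Without any other single library 0 members and 0 genes of any kind were called by limma. An unadjusted p under 0.05 was then found in 26 to 27 members, and in 2982 to 3205 of the 10449 genes. Control replicate 2 lay between the mean of the other controls and that of the IGF1 libraries in 45 of 66 members, 68.2% against 60.9% of all genes.

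**Figure D1:**
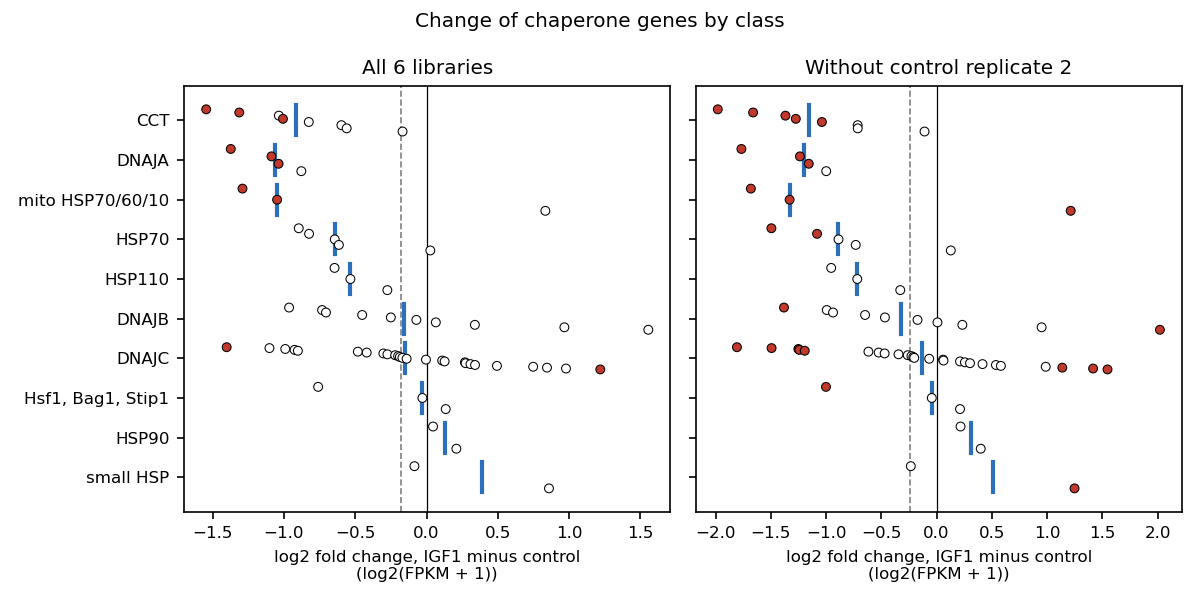
Log2 fold changes of the 66 tested chaperone genes by class, with all 6 libraries (left) and without control replicate 2 (right). Each circle is a gene, red where it was called, the blue bar is the class median and the dashed line the median of all tested genes (-0.18 and -0.24). The 8 CCT genes and the 4 DNAJA genes all lie left of 0, while the HSP90 genes lie right of it.

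The CCT chaperonin is built of 8 different subunits, and all 8 genes had log2 fold changes below 0 (median -0.92). Cct8, Cct6a and Tcp1 were called, and Cct5 and Cct7 passed the adjusted p but not the fold. Without control replicate 2, 5 of the 8 were called lower, with Cct3 (-1.37) and Cct7 (-1.04) added. Cct8, the theta subunit, had 437, 176 and 434 FPKM across the controls and 108, 112 and 109 FPKM across the IGF1 libraries. No IGF1 library reached the lowest control, and control replicate 2 stood far below the other controls. The log2 fold change of Cct8 was -1.54 (SE 0.37, adjusted p = 0.0439 from limma), and -1.98 without that library. Cct6a, the zeta subunit, had 289, 139 and 286 FPKM against 89.6, 91.5 and 89.8 FPKM, a log2 fold change of -1.31 (SE 0.30, adjusted p = 0.0423). Tcp1, the alpha subunit, had 171, 96.5 and 167 FPKM against 69.1, 70.0 and 68.8 FPKM, and its log2 fold change of -1.01 (SE 0.24, adjusted p = 0.043) lay just past the fold threshold. That value was -0.99 by limma voom and -0.36 with the length and GC trends removed, and Tcp1 was called in neither. In both genes control replicate 2 was again the intermediate library.

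The other subunits spread over a wide range. Cct3 (gamma) had 412, 206 and 414 FPKM against 157, 161 and 160.4 FPKM, and at a log2 fold change of -1.04 its adjusted p was 0.0522. Cct7 (eta) and Cct5 (epsilon) had log2 fold changes of -0.83 and -0.60 with adjusted p of 0.0451 and 0.0456, and Cct4 (delta) had -0.56 with 0.0526. Cct2, the beta subunit, stood apart at 109, 123 and 109 FPKM against 97.4, 103 and 102 FPKM. Its log2 fold change was -0.17 (adjusted p = 0.209), a sign that turned under scaling to the 75th percentile (0.18), median-of-ratios scaling (0.06) and removal of the length and GC trends (0.13). The FPKM of the 8 subunits summed to 2446, 1477 and 2423 in the controls and to 1104, 1120 and 1101 in the IGF1 libraries, that is 2115 ± 553 against 1108 ± 10.3 (exact permutation p = 0.1, 2-sided, the smallest that 3 against 3 libraries allow). Cct8 made up 17.9% of that sum in control replicates 1 and 3 and 11.9% in control replicate 2, against 9.75% to 10.04% in the IGF1 libraries. The lowest subunit was Cct2 in control replicates 1 and 3 and Tcp1 in the other 4 libraries. Pseudogene copies of Tcp1 and Cct3 exist, among which reads could have been divided, so these levels are uncertain.

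**Figure D2:**
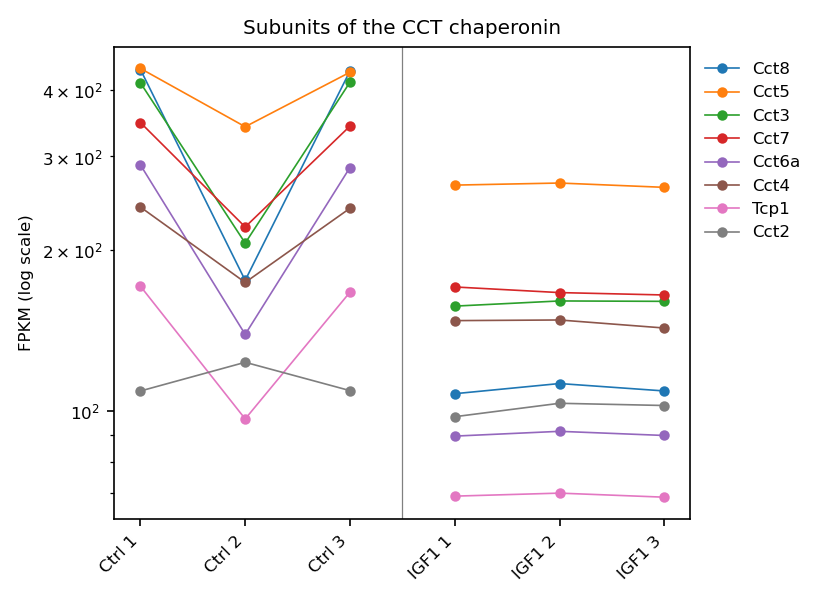
FPKM (log scale) of the 8 CCT subunit genes in each library, with points of a gene joined by a line only to guide the eye. Cct8 goes from 437 and 434 FPKM in control replicates 1 and 3 to 108 to 112 FPKM across the IGF1 libraries, while Cct2 stays between 97.4 and 123 FPKM and control replicate 2 sits between both levels for the other 7.

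The mitochondrial chaperones did not all lie on the same side of the controls. Hspa9 (mortalin), the HSP70 that pulls proteins into the matrix and folds them there, and Hspd1 (HSP60), the chaperonin ring, fell, and so did Dnaja3, the J-domain partner of Hspa9. Hspa9 had 240.2, 105 and 233 FPKM across the controls and 73.6, 74.2 and 71.8 FPKM across the IGF1 libraries, and a log2 fold change of -1.29 (SE 0.33, adjusted p = 0.0471 from limma). Hspd1 had 287, 158 and 283 FPKM against 109, 117 and 113 FPKM, with a log2 fold change of -1.05 (SE 0.25, adjusted p = 0.0439). Dnaja3 had 52.6, 22.3 and 51.0 FPKM against 14.2, 13.5 and 16.0 FPKM, with a log2 fold change of -1.37 (SE 0.34, adjusted p = 0.0456). In all 3 genes every IGF1 library was below every control. Without control replicate 2 their log2 fold changes were -1.68, -1.33 and -1.77.

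Hspe1 (HSP10), the lid of the Hspd1 ring, lay the other way although the genes share the start region shown above. Its levels were 272, 589.8 and 262 FPKM across the controls and 638, 635 and 590.2 FPKM across the IGF1 libraries. Control replicate 2 came within 1 FPKM of the lowest IGF1 library, and the other controls lay far below both. The log2 fold change of Hspe1 was 0.83 (SE 0.34, adjusted p = 0.0905), which did not pass, and 1.21 without control replicate 2, when the gene was called. The ratio of Hspe1 to Hspd1 FPKM was 0.949, 3.74 and 0.926 in the controls and 5.87, 5.44 and 5.23 in the IGF1 libraries, a mean of 1.87 ± 1.62 against 5.51 ± 0.33 (exact permutation p = 0.1, the smallest possible). The gene bodies, Hspd1 at chr1:55077835-55088243 (minus strand) and Hspe1 at chr1:55088132-55091307 (plus strand), overlap by 112 bases, pseudogene copies of both and of Hspa9 exist, and whether the counting used the strand is not given in the sources used here, so reads of one may have entered the other.

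**Figure D3:**
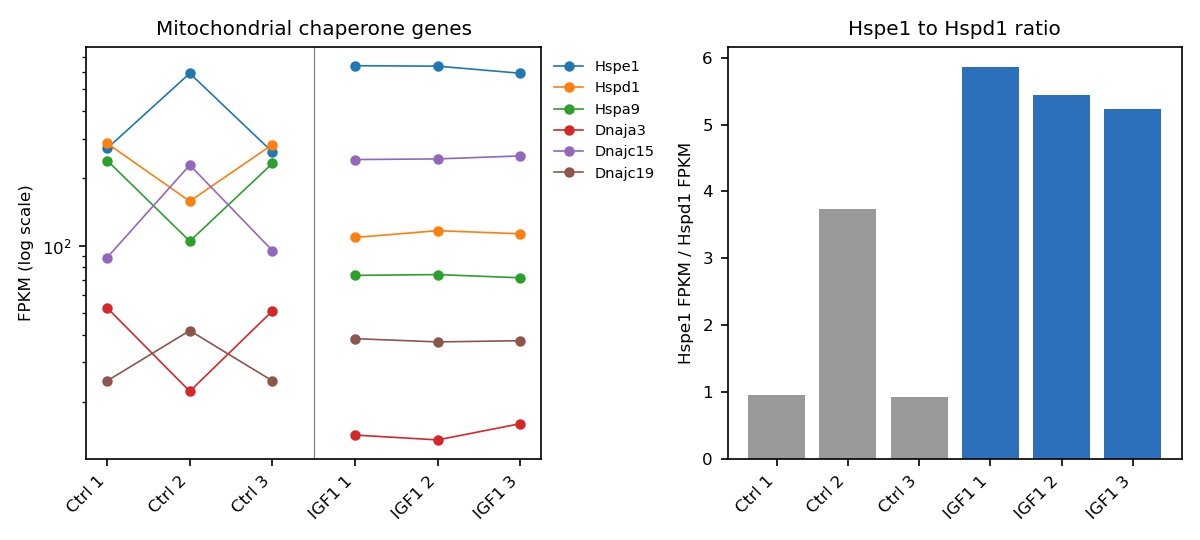
Left, FPKM (log scale) of mitochondrial chaperone genes in each library; right, the ratio of Hspe1 to Hspd1 FPKM per library, as bars from 0. Hspd1, Hspa9 and Dnaja3 are lower in the IGF1 libraries and the ratio is 5.23 to 5.87 there, against 0.926 to 3.74 in the controls.

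Among the 8 members that work in mitochondria, 3 were called lower, 0 higher, and the median log2 fold change was -0.31. Without control replicate 2, 4 were called lower and 2 higher. The remaining members of this list include Dnajc15 and Dnajc19, J-domain genes of the inner membrane import motor. Dnajc15 had 88.4, 229 and 95.0 FPKM against 243, 244 and 252 FPKM, and its log2 fold change of 0.98 (SE 0.37, adjusted p = 0.0812) did not pass, while without control replicate 2 it was 1.42 and the gene was called higher. The 12 mitochondrial folding and protease genes outside the rule were at a median log2 fold change of -0.50, and 0 of 12 tested were called by limma or by limma voom. Of these 12 genes 8 had an unadjusted p under 0.05, where 53.4% of all genes did, and 1, Grpel2, an exchange factor of Hspa9, passed the adjusted p alone. Without control replicate 2, 4 of the 12 were called lower (Trap1, Clpx, Afg3l2 and Yme1l1) and 1 higher (Hscb).

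The 4 DNAJA genes, the J-domain proteins closest to the bacterial DnaJ, were at a median log2 fold change of -1.06. Of these, 3 of 4 were called lower, with or without control replicate 2. Dnaja2, a cytosolic partner of Hspa8, had 98.6, 64.0 and 96.2 FPKM across the controls and 40.2, 42.6 and 39.5 FPKM across the IGF1 libraries, and a log2 fold change of -1.04 (SE 0.19, adjusted p = 0.035 from limma). That value was -0.94 by quantiles, -0.69 scaled to the 75th percentile and -0.81 by median of ratios. With the length and GC trends removed it was -0.42, and Dnaja2 was not called under any of these. Dnaja4, a low-expressed relative of Dnaja1, had 2.42, 1.96 and 2.42 FPKM against 0.434, 0.425 and 0.768 FPKM, with a log2 fold change of -1.09 (SE 0.13, adjusted p = 0.0286). Here control replicate 2 was close to the other controls, unlike in most members, and the change rests on few reads, 137 in control replicate 1 and 17 in IGF1 replicate 2. Dnaja1, another cytosolic partner of Hspa8, had 94.9, 72.4 and 92.0 FPKM against 47.6, 46.4 and 44.8 FPKM, and at a log2 fold change of -0.88 it passed the adjusted p (0.0287) but not the fold. It has pseudogene copies, so its level is uncertain.

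For the 10 tested DNAJB genes the median log2 fold change was -0.16, and 0 were called by limma, while limma voom called 2 higher. An unadjusted p under 0.05 was found in 5 of the 10, against 53.4% of all genes. Without control replicate 2 the median was -0.32, with 1 called lower (Dnajb9, -1.38) and 1 higher (Dnajb13, 2.02). Dnajb1, the main stress-inducible J-domain protein of the cytosol, had 80.8, 65.6 and 81.8 FPKM against 71.0, 73.2 and 71.9 FPKM, so the groups overlapped, and its log2 fold change of -0.07 (adjusted p = 0.625) turned positive under every scaling tried (0.27, 0.16 and, by quantiles, 0.00048) and with the length and GC trends removed (0.20). Dnajb6, which keeps aggregation-prone proteins soluble, had a log2 fold change of -0.73 (adjusted p = 0.0605). Dnajb9, an ER protein of the unfolded protein response, had the lowest value of the class at -0.96 (adjusted p = 0.0799). Dnajb13, a gene of sperm flagella and motile cilia, had the highest at 1.56 (SE 0.42, adjusted p = 0.0501), from 0.409, 2.77 and 0.458 FPKM against 3.97, 4.20 and 6.61 FPKM. Dnajb3 passed the adjusted p with a log2 fold change of 0.97 (adjusted p = 0.029).

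The DNAJC genes are the largest and most varied class, with 26 tested, a median log2 fold change of -0.15, and 1 called in each direction. Without control replicate 2, 5 were called lower and 3 higher. Dnajc4, a little-studied J-domain gene and the only one of the 66 members called higher with all 6 libraries, had 9.51, 19.6 and 9.33 FPKM across the controls and 28.7, 27.6 and 32.1 FPKM across the IGF1 libraries. Control replicate 2 was again in between. The log2 fold change of Dnajc4 was 1.22 (SE 0.29, adjusted p = 0.043 from limma). Dnajc14, a J-domain protein of the ER membrane, had 9.85, 3.66 and 9.79 FPKM against 2.01, 2.09 and 2.18 FPKM, with a log2 fold change of -1.40 (SE 0.35, adjusted p = 0.0458). Dnajc6 (auxilin, which uncoats clathrin vesicles) at -0.99, Dnajc8 (found with splicing factors) at -0.42 and Dnajc24 (needed for diphthamide synthesis) at 0.49 passed the adjusted p alone (0.0368, 0.0466 and 0.0399). Dnajc9, a chaperone of histones, was the most abundant of the class by the mean of all 6 libraries, although Dnajc15 exceeded it in each IGF1 library. Dnajc9 had 218, 286 and 227 FPKM against 211, 215 and 212 FPKM, and its log2 fold change of -0.19 (adjusted p = 0.297) turned to 0.16 and 0.05 under scaling to the 75th percentile and the median of ratios. Dnajc7, which moves clients between HSP70 and HSP90, had a log2 fold change of -0.27 (adjusted p = 0.0821), or 0.07 under scaling to the 75th percentile.

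Dnajc2 and Hspa14 form the ribosome-associated complex that meets new chains as they leave the ribosome, and their values differed in sign. Dnajc2 had 62.4, 61.4 and 63.9 FPKM against 75.6, 75.7 and 75.5 FPKM. Control replicate 2 was like the other controls here, and every IGF1 library lay above every control. Its log2 fold change of 0.27 (SE 0.09) had an adjusted p of 0.0608. Hspa14 had 31.7, 21.4 and 32.2 FPKM against 14.5, 14.2 and 15.0 FPKM, and at -0.90 (SE 0.18) it passed the adjusted p (0.0369) but not the fold.

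HSP90 and the constitutive HSP70 were the most abundant members by the mean of all 6 libraries, although Hspe1 exceeded Hsp90aa1 in each IGF1 library, and neither was called by limma or limma voom. Hsp90ab1, the constitutive cytosolic HSP90, had 921, 1374 and 929.7 FPKM across the controls and 1201, 1232 and 1229.8 FPKM across the IGF1 libraries. Hspa8, the constitutive cytosolic HSP70, had 967, 1209 and 988 FPKM against 1067, 1053 and 1087 FPKM. Hsp90aa1, the inducible HSP90, had 482, 685 and 478 FPKM against 555, 552 and 566 FPKM. In all 3 genes control replicate 2 was the highest library of the 6 and the groups overlapped. Their log2 fold changes of 0.21, 0.03 and 0.05 (adjusted p = 0.452, 0.906 and 0.845) turned to -0.62, -0.80 and -0.68 under quantile normalization. Without control replicate 2 they were 0.40, 0.13 and 0.22, and none was called. HSP90 took up 18.5% and 18.6% of the summed FPKM of all members in control replicates 1 and 3, 27.6% in control replicate 2, and 27.2% to 27.8% in the IGF1 libraries (exact permutation p = 0.3). The ratio of Hsp90ab1 to Hsp90aa1 was 1.95 ± 0.05 in the controls and 2.19 ± 0.04 in the IGF1 libraries, with no overlap (exact permutation p = 0.1, the smallest possible).

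**Figure D4:**
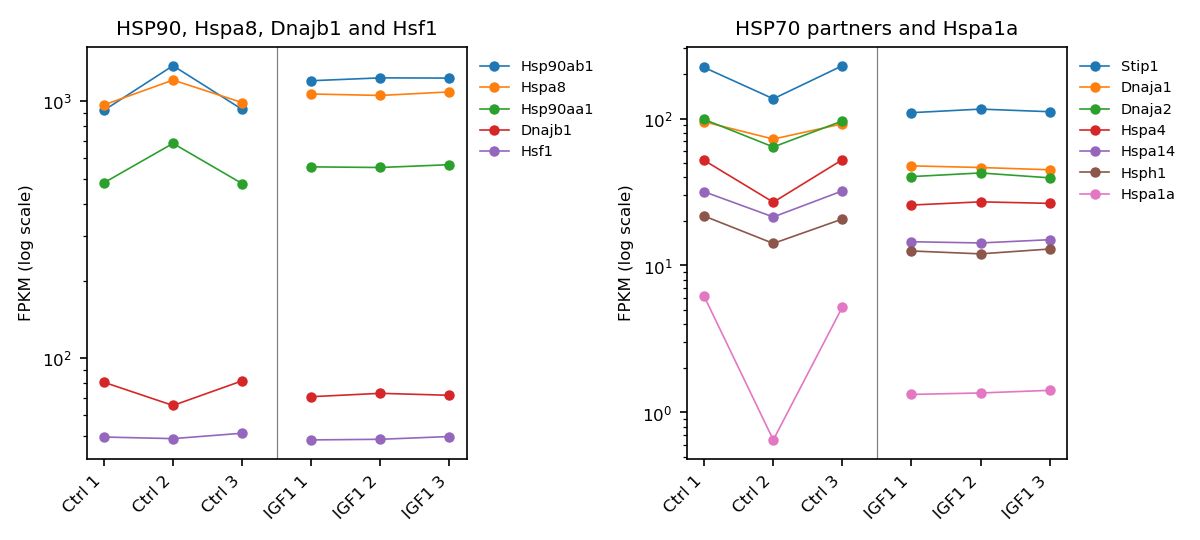
FPKM (log scale) per library of HSP90, Hspa8, Dnajb1 and Hsf1 (left) and of HSP70 partners and Hspa1a (right). Control replicate 2 is the highest library for Hsp90ab1 (1374 FPKM), Hspa8 and Hsp90aa1 and the lowest for Hspa1a (0.650 FPKM), while Hsf1 lies between 48.2 and 51.2 FPKM in all 6 libraries.

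The stress-inducible HSP70 was low. Hspa1a had 6.16, 0.650 and 5.21 FPKM across the controls and 1.33, 1.36 and 1.41 FPKM across the IGF1 libraries. The controls lay on both sides of the IGF1 libraries, so the groups overlapped, and the log2 fold change of -0.82 (SE 0.56, adjusted p = 0.249) rested on which controls were used, since it was -1.49, and called, without control replicate 2. Hspa1b, the near-identical neighbour, had 0.500 ± 0.387 FPKM across the controls and 0.495 ± 0.163 FPKM across the IGF1 libraries and was not tested; reads of the pair could have been divided between them. The HSP70 class as a whole had 5 tested genes, a median of -0.64 and 0 called by limma or limma voom. Of the 5, 3 had an unadjusted p under 0.05, where 53.4% of all genes did, and Hspa14 passed the adjusted p alone. Without control replicate 2, 2 of the 5 were called lower, Hspa1a and Hspa14 (-1.08).

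The exchange factors and connectors gave 0 calls by limma or limma voom, with 3 of 6 at an unadjusted p under 0.05, where 53.4% of all genes were. Hspa4 and Hsph1 of the HSP110 class had log2 fold changes of -0.64 and -0.53 (adjusted p = 0.0959 and 0.0654), and Hspa4l, the third, had -0.27 (adjusted p = 0.0898). Stip1, which links HSP70 to HSP90, had 222, 136 and 229 FPKM against 109.5, 116 and 111 FPKM, with a log2 fold change of -0.76 (adjusted p = 0.0534). Without control replicate 2 that value was -1.001, and Stip1 was called lower, the only call among these 6 genes. Bag1 had 193 ± 18.8 FPKM across the controls and 211 ± 3.29 FPKM across the IGF1 libraries, and a log2 fold change of 0.13 (adjusted p = 0.362) that turned to -0.08 by quantiles and -0.23 with the length and GC trends removed. Hsf1 had 49.5, 48.8 and 51.2 FPKM against 48.2, 48.5 and 49.7 FPKM, the narrowest range of the members described. Its log2 fold change of -0.03 (SE 0.09, adjusted p = 0.785) turned positive, between 0.18 and 0.31, under every scaling tried. The 12 members known as HSF1-inducible, of which 10 were tested, were at a median log2 fold change of -0.30, and 1 of them, Hspd1, was called, lower. Their median turned to 0.035 scaled to the 75th percentile and 0.045 with the length and GC trends removed. Without control replicate 2, 3 of them were called lower and 1 higher.

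Small heat shock proteins, which hold unfolded proteins without using ATP, were low, and of the 8 genes 2 were tested, Hspb6 and Hspb11. Hspb1 (HSP27) had 0.673 ± 0.390 FPKM across the controls and 0.326 ± 0.220 FPKM across the IGF1 libraries. Hspb8, a partner of Bag3 in selective autophagy, had 0.481, 0.191 and 0.410 FPKM in the controls, from at most 7 reads, and was at 0 in the 3 IGF1 libraries. Neither was tested. Hspb6 had a log2 fold change of -0.08 (adjusted p = 0.725), which was above 0 under every scaling tried. Hspb11 had 1.75, 4.76 and 1.39 FPKM against 4.60, 5.43 and 5.26 FPKM, so that control replicate 2 lay among the IGF1 libraries. Its log2 fold change was 0.86 (adjusted p = 0.0872), and 1.25, and called higher, without control replicate 2. The 6 ER members named in the opening, a list without Dnajc14, had a median of -0.55, with 0 called by limma or limma voom. Of the 6, 3 had an unadjusted p under 0.05, where 53.4% of all genes did. Without control replicate 2 the median was -0.77 and 2 were called lower, and with the length and GC trends removed the median was -0.07.

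Fold changes were also set beside transcript length and GC content. Across the 66 tested members Spearman's rho of the log2 fold change was -0.24 with length and 0.12 with GC content, and across 10352 genes it was -0.22 and 0.38, as descriptions over genes that share the same 6 libraries. The 7 tested members with a longest reference transcript under 1500 bases (Bag1, Dnajb3, Dnajc4, Dnajc17, Dnajc19-ps, Dnajc24 and Hspe1) all had log2 fold changes above 0, with a median of 0.83. Of the 59 longer members 14 were above 0 and 45 below, with a median of -0.45. Over all tested genes 81.3% of those under 1500 bases were above 0, and 34.2% of the longer ones. This limit of length was chosen after the values were seen. Reads per FPKM rise with the length used, and for some members the listed length goes against them. In control replicate 1 Dnajc15, listed at 6193 bases, held 459 reads at 88.4 FPKM, against 3348 reads at 272 FPKM for Hspe1 (964 bases). Hspd1, listed at 2423 bases, held 5880 reads at 287 FPKM, fewer per FPKM than Bag1 (1348 bases, 4022 reads at 186 FPKM). The split and the removal of length trends rest on the listed lengths. With the trends on length and GC content removed from each library, the median of the members was -0.07, 1 member was called lower, Dnaja3, and 0 higher. Cct8 then had a log2 fold change of -1.02 (adjusted p = 0.0501), Hspd1 -0.61, Hspe1 0.41 and Dnajc4 0.50.

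**Figure D5:**
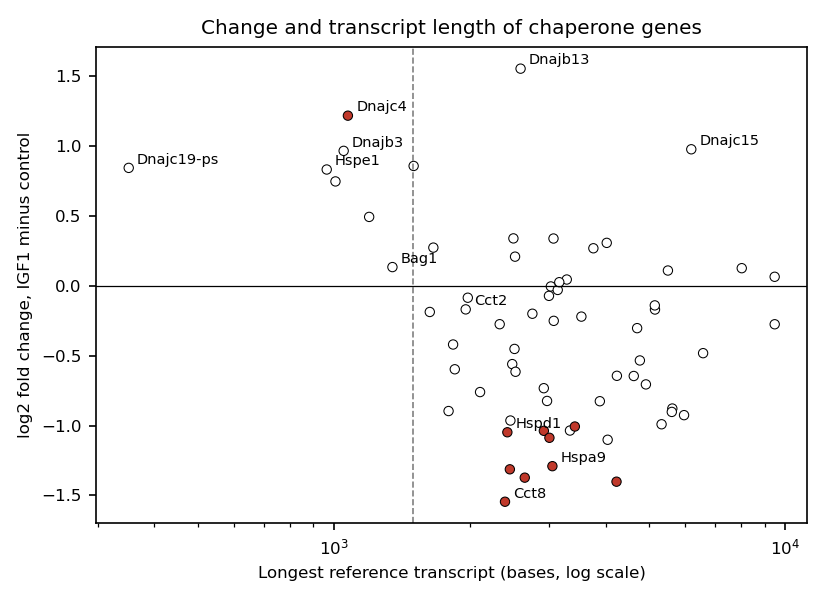
Log2 fold change of the 66 tested chaperone genes against the length of their longest reference transcript (bases, log scale), red where called; the dashed line marks 1500 bases. All 7 genes left of it lie above 0, as do 14 of the 59 genes right of it.

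Co-chaperones outside the rule were taken from a list of 31 genes, all tested. Of these 6 were called lower and 0 higher, where 4.63% and 1.98% of all tested genes were. The median log2 fold change of the 31 genes was -0.25. By adjusted p the first among those called were Bag5, which holds HSP70 at its exchange step, at -1.27 (adjusted p = 0.0287), Cacybp, a protein linked to ubiquitin ligases, at -1.14 (adjusted p = 0.03), and Ppid (cyclophilin 40), which docks on HSP90, at -1.42 (adjusted p = 0.0374). The others called lower were Bag2, Bag4 and Vbp1. Without control replicate 2 the calls were 8 lower and 5 higher of the 31, where 20.6% and 12.3% of all tested genes were called.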

How the data were processed

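Gene-level values of 6 RNA-seq libraries (3 control, 3 IGF1, grouped by the treatment label) were analysed. The authors deposited 1 FPKM value per gene symbol and library; the unit is not written in the files and was taken from the values, which rise in whole steps within a gene. The study's methods name fastp, RSEM and DESeq2, and the submitters' processing notes name fastp, HISAT2, StringTie and GRCm38 (mm10), so which tools made these values is uncertain. Steps gave whole reads (tolerance 0.02 reads) for 14838 of 14838 genes above 0 in at least 2 libraries, and their total was taken as depth. Reads are not a deposited unit, so limma 3.58.1 in R 4.3.3 (lmFit, eBayes with trend) on log2(FPKM + 1) was the main test, with the study's thresholds, and limma voom on the reads an alternative. The fit was tried on simulated data first. All 6 simulated libraries had the spread of the IGF1 libraries and none differed as control replicate 2 does, so that trial does not show how the fit behaves here. Lengths came from GENCODE M21 and promoters from RefSeq. Members, classes, marker lists and co-chaperone lists were chosen with earlier results of these data known. Genes named are the core members, all called members, the highest, lowest and most abundant of each class, and from each outside list, in each direction, the 3 called with the smallest adjusted p; Dnajb3, Dnajc6, Dnajc8, Dnajc15, Dnajc24, Grpel2, Trap1, Clpx, Afg3l2, Yme1l1, Hscb, Ahsa1, Ptges3, the prefoldin genes and the markers named are exceptions chosen once their values had been seen. Alternatives were 3 normalizations, other filters and pseudocounts, no variance trend, a replicate block, removal of length and GC trends, and leaving out each library.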

Additional observations from a re-analysis of the deposited data

How the results depend on the processing

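Of the 37 named members that were tested, 27 kept the direction of their log2 fold change under every alternative that gave them a value (16 or 17 each), and the 10 called members were among them. The counts of calls were less stable, and the cause was not tested except where the alternative itself removes samples. Beside 1 higher and 9 lower, members called were 3 and 3 by quantile normalization, 3 and 3 by scaling to the 75th percentile, 3 and 5 by median-of-ratios scaling, 0 and 3 with no filter, 0 and 5 with a pseudocount of 5, 0 and 1 with the length and GC trends removed, 2 higher with a pseudocount of 0.1 and 3 higher by limma voom. Leaving out 1 library gave 0 to 6 higher and 0 to 19 lower. The higher counts are those without control replicate 2, and each of the other 5 libraries gave 0 and 0.

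Deviations of same-numbered control and IGF1 libraries correlated at -0.057, -0.050 and 0.0057, so no pairing by replicate number was seen. Such a check could not exclude pairing, because the deviations of the controls mostly set control replicate 2 against the other controls. With the replicate block 0 members were called higher and 0 lower by limma, with 37 members and 4791 of the 10449 genes at an unadjusted p under 0.05.

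The median log2 fold change of all members was 0.0049 (75th percentile), -0.081 (median of ratios), -0.44 (minimum of 5 FPKM) and -0.071 (length and GC trends removed). By quantile normalization the medians were -0.078 for the regulators, 0.14 for DNAJC, -0.65 for HSP90, -0.19 for HSP110, -0.69 for the HSF1-inducible members and -0.10 for the mitochondrial members. Scaled to the 75th percentile they were 0.31 for the regulators, 0.17 for DNAJB, 0.18 for DNAJC, 0.48 for HSP90, -0.20 for HSP110, 0.64 for small HSPs, 0.035 for the HSF1-inducible and 0.014 for the mitochondrial members. By median of ratios they were 0.20 for the regulators, 0.065 for DNAJC, -0.077 for the HSF1-inducible and -0.095 for the mitochondrial members. With the length and GC trends removed they were -0.23 for the regulators, -0.41 for CCT, -0.55 for DNAJA, 0.16 for DNAJC, 0.59 for HSP90, -0.17 for HSP110, 0.045 for the HSF1-inducible and -0.074 for the ER members. A minimum of 5 FPKM gave -0.58 for DNAJB, 0.27 for DNAJC and -0.071 for the HSF1-inducible members, no filter gave -0.048 for small HSPs, and a pseudocount of 5 gave -0.087 for DNAJC. The DNAJC median ranged from -0.16 to -0.12 when 1 library was left out.

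Single genes turned as follows. By quantiles Bag1 was at -0.078, Dnajb1 at 0.00048, Hsf1 at 0.18, Hsp90aa1 at -0.68, Hsp90ab1 at -0.62, Hspa8 at -0.80 and Hspb6 at 0.036. Scaled to the 75th percentile Cct2 was at 0.18, Dnajb1 at 0.27, Dnajc7 at 0.070, Dnajc9 at 0.16, Hsf1 at 0.31 and Hspb6 at 0.18. By median of ratios Cct2 was at 0.063, Dnajb1 at 0.16, Dnajc9 at 0.046, Hsf1 at 0.20 and Hspb6 at 0.091. With the length and GC trends removed Bag1 was at -0.23, Cct2 at 0.13, Dnajb1 at 0.20 and Hsf1 at 0.21. Leaving out 1 library, Hsp90aa1 ranged from -0.042 to 0.22, Hspa8 from -0.032 to 0.13 and Hspb6 from -0.23 to 0.034.

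Depth limits the low members most, since a tested member held as few as 8 reads in a library and the 18 untested members gave no comparison.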

Other observations

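Prefoldin, the complex that hands new actin and tubulin chains to the CCT chamber, is built of 6 subunits, whose genes were among the co-chaperones outside the rule. Vbp1 was called lower, from 137, 52.6 and 135 FPKM (control replicates 1, 2 and 3) to 32.2, 33.9 and 29.8 FPKM (IGF1 replicates 1, 2 and 3), a log2 fold change of -1.60 (SE 0.38, adjusted p = 0.0435 from limma). Pfdn5 had 102, 375 and 104 FPKM across the controls against 568, 553 and 557 FPKM, a log2 fold change of 1.81 (SE 0.52, adjusted p = 0.0526) that did not pass. The log2 fold changes of Pfdn1, Pfdn2, Pfdn4 and Pfdn6 lay between 0.67 and 1.08, and 0 of these 4 genes were called by limma or limma voom. All 4 had an unadjusted p under 0.05, where 53.4% of all genes did. Without control replicate 2, Pfdn1, Pfdn2, Pfdn5 and Pfdn6 were called higher and Vbp1 lower. The difference between Vbp1 and the other subunits was not tested.

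Among HSP90 partners, Ahsa1, which speeds its ATP cycle, and Ptges3 (p23), which holds its closed form, passed the adjusted p (0.029 and 0.0286) with log2 fold changes of -0.66 and -0.78, under the fold threshold, beside HSP90 genes whose log2 fold changes were 0.05 and 0.21. These genes were chosen after their values were seen.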
